A study of Mus musculus with 22 samples.

Results

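The circadian clock genes described here were Arntl, Clock, Npas2, Per1, Per2, Per3, Cry1, Nr1d1, Dbp and Ciart, found by exact match of the gene symbol. They were 10 of the 17306 genes in the expression table, and all 10 passed the filter on low values, as did 16765 genes in all. RNA was sequenced from the lumbar (L4-L6) spinal cord of 22 wildtype C57BL6J mice, male and aged 12 to 14 weeks when collected. Every mouse had received 1 mg of sodium iodoacetate (MIA) in a knee joint, a chemical model of joint pain, so no group was without joint injury. The treatment was SAFit2, an inhibitor of the stress-regulating chaperone FKBP51, at 100 mg/kg in a slow-release vesicular phospholipid gel, or the gel alone (vehicle). The early groups received the gel on days -3 and 4 (the sample labels give the first of these days as 3) and comprised 5 SAFit2 and 6 vehicle mice, called Early SAFit2 and Early Vehicle below. Those of the late groups received it on days 20 and 27 and comprised 5 SAFit2 and 6 vehicle mice, Late SAFit2 and Late Vehicle. In the Early SAFit2 group the sample titles say SAFit1 but the treatment label says SAFit2. All tissue was collected on day 30 per the study's methods, which describe quadrants on the injured side.

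By their labels, the early mice formed one batch and the late mice another, and timing of treatment and batch cannot be told apart wherever early are compared with late mice. The hour of tissue collection is not given in the sources used here, and clock transcripts vary over the day. Each library was 1 mouse, and p-values measure the spread between these mice. Because the samples were pieces of tissue, fewer cells of a type and less RNA per cell cannot be told apart. Between 11352989 and 24433349 reads per library fell on genes (median 17732341), and each clock gene had from 46 to 3065 reads in a library. Levels are given as the authors' log2 CPM (reads of a gene scaled to the library's total), on which a difference of 1 is a doubling. Neuronal markers were present in every library, at a summed level of 3663 to 5116 CPM over 5 genes.

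The circadian clock is a feedback loop of transcription that runs in most cells with a period of about a day. The activators BMAL1 (encoded by Arntl) and CLOCK, or its paralog NPAS2, bind E-box elements as a pair and switch on the Period (Per) and Cryptochrome (Cry) genes, whose proteins then inhibit the pair. A second loop runs through the nuclear receptor REV-ERB alpha (Nr1d1), which represses Arntl through elements called RREs. DBP is an output transcription factor that acts on D-boxes, and CIART (also named CHRONO) is a further repressor of the activator pair. Through the day the transcripts of the 2 arms run in opposite phase, with Arntl and Npas2 high when Nr1d1 and Dbp are low. Per1 is also switched on by glucocorticoids, the hormones whose receptor FKBP51 restrains. In the spinal cord, as in other tissues outside the brain's central pacemaker, the loop runs as a local clock.

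In the GENCODE annotation of GRCm38 (the mm10 build), the activator genes lie at chr7:113207465-113314126 (Arntl, plus strand), chr5:76209868-76304792 (Clock, minus) and chr1:39193731-39363236 (Npas2, plus). The repressor genes lie at chr11:69095217-69109960 (Per1, plus), chr1:91415982-91459324 (Per2, minus), chr4:151003652-151044665 (Per3, minus), chr10:85131700-85185064 (Cry1, minus), chr11:98767932-98775333 (Nr1d1, minus) and chr3:95878503-95882251 (Ciart, minus). The output gene Dbp lies at chr7:45705088-45710203 (plus).

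The start regions of some of these genes held elements of the kind through which the loop is wired. Those shown hold such an element or belong to a gene that changed, and that of Nr1d1 is described without its sequence. RefSeq windows on GRCm38.p6, of 250 bases before to 50 bases after a start site, were at hand for 9 of the 10 genes (13 windows), all but Per2. Each window was searched on both strands for 5 elements. The E-box (CACGTG) was found in 7.15% of all 32851 windows, the E-prime box (CACGTT or AACGTG) in 4.68%, the D-box (TTATGTAA or TTACGTAA) in 1.06%, the RRE (TAGGTCA or TGGGTCA) in 6.45% and the CRE (TGACGTCA) in 1.79%. The lines that follow run 5′ to 3′ on the gene's strand up to the last base before the start site, except for Arntl, and capitals mark a match. Per3 (chr4:151044666-151044915, minus strand) had 2 D-boxes, whose first bases lay at -205 and -158 from the start. Ciart (chr3:95882229-95882478, minus strand) had 3 E-boxes, at -116, -58 and -44. Cry1 (chr10:85185055-85185304, minus strand) had an E-prime box at -79 and an E-box at -60. Per1 (chr11:69098699-69098948, plus strand) had an E-box at -166 in the first of its 2 windows. The window of Dbp (chr7:45704997-45705246, plus strand), one of the genes that changed, held none of the 5 in these letters. For Arntl, a stretch of 30 bases downstream of the start site of its second window is shown (chr7:113207530-113207559, plus strand). Its RRE has its first base at 30 from that site, counted from the site and not from the first base printed. The window of Nr1d1 had an E-prime box at -28, and those of Clock and Npas2 held none of the 5. A match describes the letters of the window and was not tested as a binding site.
Per3: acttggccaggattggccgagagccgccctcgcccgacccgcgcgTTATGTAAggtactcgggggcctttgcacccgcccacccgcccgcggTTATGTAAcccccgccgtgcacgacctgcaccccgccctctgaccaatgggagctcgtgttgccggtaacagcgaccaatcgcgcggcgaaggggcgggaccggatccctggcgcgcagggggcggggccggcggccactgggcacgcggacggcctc
Dbp: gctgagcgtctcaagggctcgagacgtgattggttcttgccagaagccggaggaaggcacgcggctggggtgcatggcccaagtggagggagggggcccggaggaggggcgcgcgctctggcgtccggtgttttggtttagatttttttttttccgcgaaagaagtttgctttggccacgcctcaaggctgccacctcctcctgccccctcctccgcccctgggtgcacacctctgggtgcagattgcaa
Ciart: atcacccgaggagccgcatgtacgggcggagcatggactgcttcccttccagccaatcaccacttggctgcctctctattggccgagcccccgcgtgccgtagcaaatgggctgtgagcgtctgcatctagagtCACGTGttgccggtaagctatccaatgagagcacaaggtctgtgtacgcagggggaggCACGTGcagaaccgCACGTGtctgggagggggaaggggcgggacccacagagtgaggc
Cry1: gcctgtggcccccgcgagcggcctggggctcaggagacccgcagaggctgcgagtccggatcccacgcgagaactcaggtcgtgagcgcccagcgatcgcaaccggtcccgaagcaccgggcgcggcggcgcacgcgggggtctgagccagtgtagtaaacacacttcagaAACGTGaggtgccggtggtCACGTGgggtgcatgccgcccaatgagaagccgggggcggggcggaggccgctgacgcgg
Per1: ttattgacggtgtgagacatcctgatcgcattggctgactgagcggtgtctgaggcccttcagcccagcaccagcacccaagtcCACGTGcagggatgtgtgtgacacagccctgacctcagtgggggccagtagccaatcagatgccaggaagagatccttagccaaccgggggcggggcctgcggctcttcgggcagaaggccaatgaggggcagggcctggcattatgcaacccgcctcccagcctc
Arntl: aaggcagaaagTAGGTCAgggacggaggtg

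Per unit of transcript length, Nr1d1 was the most abundant of the 10 transcripts and Per2 the least. The levels compared here are means over the 22 libraries in log2 CPM per kilobase of the longest transcript. Nr1d1 stood at 5.04 ± 0.39 (SD, n = 22) and Dbp at 4.09 ± 0.52, and each lay above the next gene in 22 of 22 libraries. Cry1 followed at 2.82 ± 0.20 and was above Clock in 19 of 22 libraries. Clock (2.47 ± 0.26), Per1 (2.33 ± 0.54), Ciart (2.05 ± 0.32) and Arntl (1.91 ± 0.26) were neighbours whose order held in only 14 to 17 libraries from one to the next. Per3 (1.26 ± 0.67) and Npas2 (1.25 ± 0.30) could not be ordered, since Per3 was the higher in 10 of 22 libraries. Per2 was lowest at 0.78 ± 0.38, and Npas2 was above it in 21 of 22 libraries. Per3 had the widest spread of the 10 and Cry1 the narrowest.

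**Figure D1:**
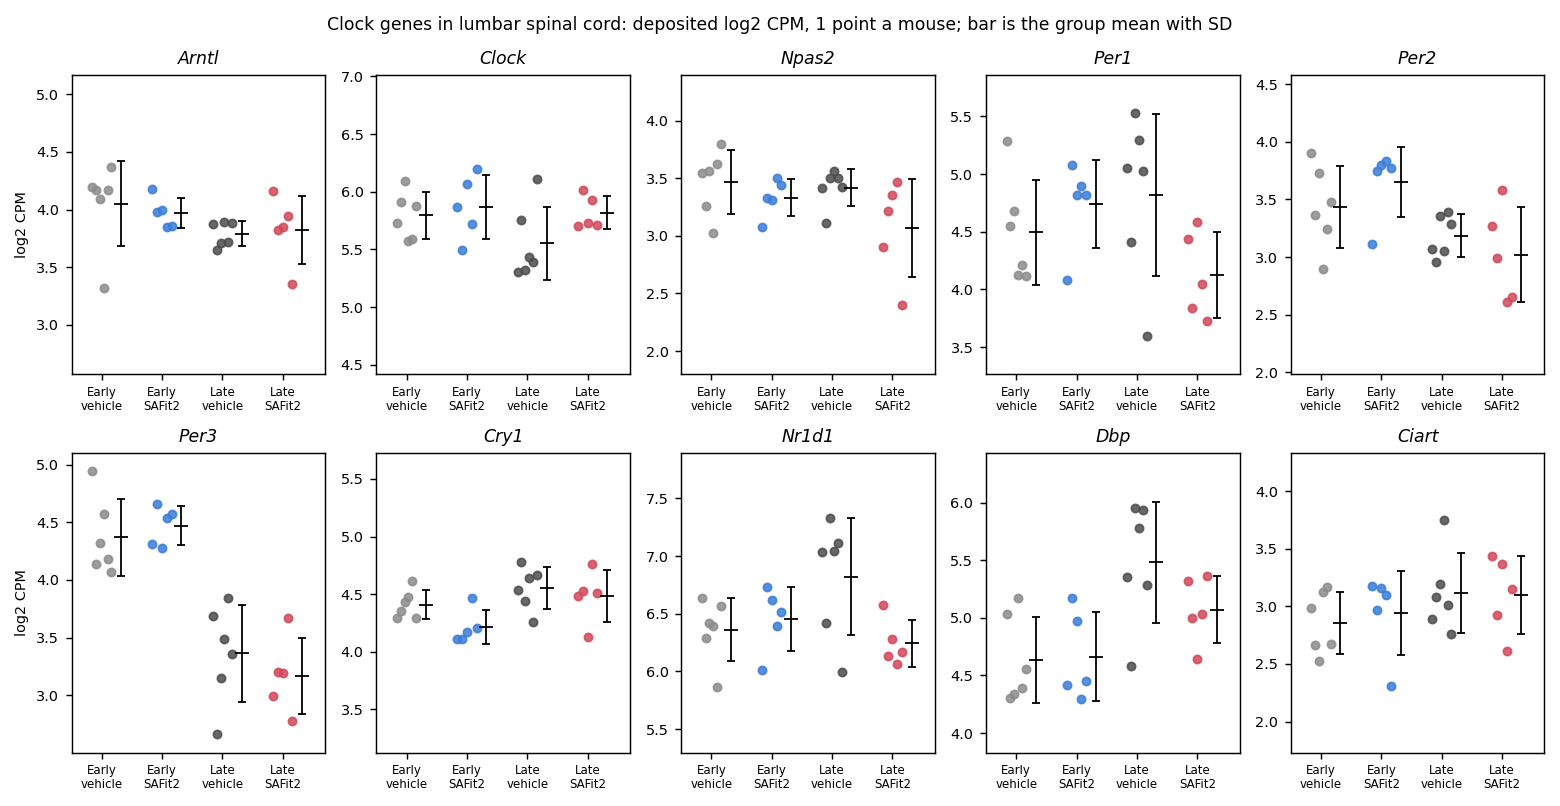
Level of each of the 10 clock genes in each of the 22 mice, in log2 CPM, by group (Early Vehicle, Early SAFit2, Late Vehicle, Late SAFit2); points are mice and bars the group mean with its SD. Per3 is the gene whose 11 late mice (2.66 to 3.84) all lie below its 11 early mice (4.07 to 4.95).

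SAFit2 given late was compared with vehicle given late, the contrast in which the drug had been given most recently before collection. Of the 10 clock genes, 1 passed the threshold used throughout, a limma p adjusted below 0.05 over all 16765 genes with at least a 1.2-fold difference. This was Nr1d1, which was lower after SAFit2. Across all genes 12.1% passed the same threshold (6.72% lower), so 1 of 10 is close to the background. In 0 of the 10 did the late groups not overlap, beside 1.71% of all genes. The median log2 difference of the 10 genes was -0.18, beside -0.05 over all genes tested, and 8 of the 10 differences were below 0.

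In Late Vehicle, Nr1d1 ranged from 6.0 to 7.33 log2 CPM with a median of 7.04. The Late SAFit2 mice had 6.58, 6.13, 6.28, 6.06 and 6.17 log2 CPM. Of the vehicle mice, 5 lay at or above 6.42 and 1, replicate 6, below all of the SAFit2 mice, so the groups overlapped. The log2 difference was -0.58 ± 0.19 (SE; 95% interval -0.96 to -0.20), a fold of 0.67, with a limma adjusted p of 0.045. An exact two-sided permutation test over the 462 splits of the 11 mice gave p = 0.0476 for Nr1d1. The call was lost without each of 13 libraries in turn: Early SAFit2 replicates 4 and 5, Early Vehicle replicates 2, 3 and 6, Late SAFit2 replicates 2, 3, 4 and 5, and Late Vehicle replicates 1, 3, 4 and 5. Without single libraries its log2 difference ranged from -0.74 to -0.48, and its limma adjusted p from 0.0041 to 0.13. The call of Nr1d1 was also lost when only the late mice were fitted (limma adjusted p = 0.077), with limma voom on the reads (0.057) and with no variance trend (0.075). Nr1d1 shares 263 exon bases with Thra on the opposite strand, and the strand setting of the authors' counting is not given in the sources used here.

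Libraries of these mice differed in how log2 CPM ran with the GC content of genes, and the late differences of the clock genes ran with that content. The slope of a library, in log2 per percent GC after each gene was centred on its mean over libraries, ranged from -0.0475 to -0.00532 (median -0.033) in Late SAFit2 and from -0.0321 to 0.0489 (median 0.03) in Late Vehicle. Across the 10 clock genes, the log2 difference between the late groups correlated with the GC content of the transcript at r = -0.87 (rho = -0.90), and across the 16201 genes with a GC value at r = -0.61 (rho = -0.68). In other contrasts the members' correlation was 0.30 (rho = 0.52) for early SAFit2, -0.75 for the mean of both timings, 0.57 for timing under vehicle and -0.013 (rho = -0.21) for timing under SAFit2, so among the 10 genes it differed between contrasts. Across the 16201 genes r was 0.11 for early SAFit2, -0.48 for the mean of both timings and 0.55 for early minus late. For timing it was 0.19 under vehicle and -0.40 (rho = -0.48) under SAFit2. These are correlations across genes of the same libraries and are given as a description. The GC content of the members ran from 40.9% for Clock, the highest of the late differences, to 61.6% for Dbp. Once the trend of log2 CPM on GC content and transcript length had been taken out of each library, the late difference of Nr1d1 was -0.15 ± 0.098 (SE; limma adjusted p = 0.48), those of the 10 genes ran from -0.15 to 0.21, and none of the 16201 genes (0.0%) passed, with 2605 at an unadjusted p under 0.05. Bc1, a short neuronal transcript, took 3.31% to 16.5% of the reads on genes in Late SAFit2 and 1.32% to 7.55% in Late Vehicle, and mitochondrial genes took 12.7% to 14.9% in Late SAFit2 and 6.82% to 10.4% in 5 of the Late Vehicle mice. Late Vehicle replicate 6, the vehicle mouse with the lowest Nr1d1, stood with the SAFit2 libraries in its mitochondrial share (13.9%) and its slope (-0.0321). The part of either share in the result was not tested.

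**Figure D2:**
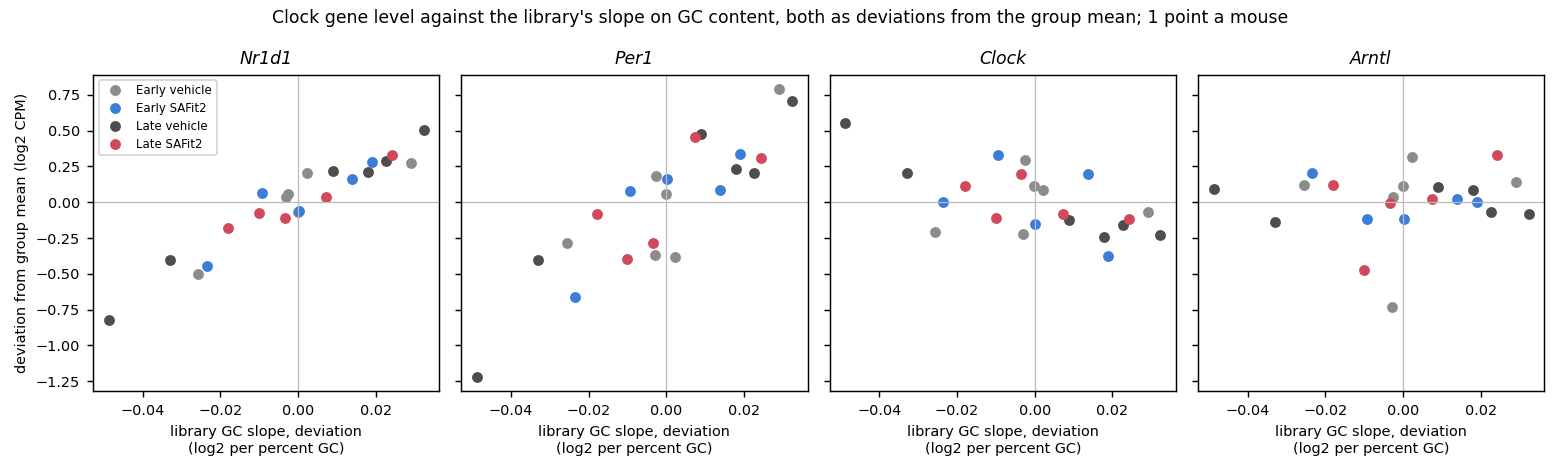
Level of Nr1d1, Per1, Clock and Arntl in log2 CPM (vertical axis) against the slope of each library on GC content in log2 per percent GC (horizontal axis), both as deviations from the group mean, 1 point per mouse coloured by group. The points of Nr1d1 (r = 0.95) and Per1 (r = 0.86) rise with the slope, those of Clock fall (r = -0.59) and those of Arntl show no trend (r = 0.09).

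Per1, a Period gene that outside signals can induce within a short time, had the largest late difference of the 10 but did not pass the threshold. In Late Vehicle it ranged from 3.60 to 5.53 log2 CPM (median 5.04), and the Late SAFit2 mice had 4.43, 3.84, 4.58, 4.05 and 3.73. All but 2 of the vehicle mice lay above every SAFit2 mouse, and vehicle replicate 6 lay below all of them. The log2 difference was -0.69 ± 0.27 (SE; 95% interval -1.25 to -0.14) with a limma adjusted p of 0.077. Without Late Vehicle replicate 6 the difference of Per1 passed, at -0.94 (limma adjusted p = 0.0061), and without Late Vehicle replicate 2 at -0.77 (adjusted p = 0.0495). With library quality weights, under which 6381 of all genes passed, it was -0.87 and passed too (limma adjusted p = 0.0033). With the trend of GC content and length removed it was -0.10 ± 0.16. A list of 8 genes known to be induced by glucocorticoid, Fkbp5 among them, had 0 members past the threshold in the late contrast, beside 12.1% of all genes, and a median log2 difference of 0.05.

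None of the activators passed the threshold between the late groups. Clock, whose protein pairs with BMAL1, had 5.70, 6.01, 5.73, 5.93 and 5.71 log2 CPM in Late SAFit2, and 5.31 to 6.11 (median 5.41) in Late Vehicle. Of the vehicle mice, 4 lay below every SAFit2 mouse and 1 above all of them, and the log2 difference was 0.27 ± 0.14 (SE; limma adjusted p = 0.19). It passed for Clock without Late Vehicle replicate 6 (0.38, limma adjusted p = 0.032) and with library quality weights (0.40, adjusted p = 0.014), and was -0.02 with the GC and length trend removed. Npas2, the paralog of Clock, had 2.90, 3.21, 3.35, 3.46 and 2.40 log2 CPM in Late SAFit2, and 3.11 to 3.56 (median 3.46) in Late Vehicle. The difference of Npas2 was -0.35 ± 0.18 (SE; limma adjusted p = 0.16), with 2 SAFit2 mice below every vehicle mouse. For Arntl the difference was 0.04 ± 0.16 (SE; 95% interval -0.30 to 0.37).

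Among the other repressors and the output gene, no late difference passed. Dbp had a log2 difference of -0.41 ± 0.22 (SE; limma adjusted p = 0.19). Among the libraries left out in turn, it passed only without Late Vehicle replicate 2 (-0.59, adjusted p = 0.038). It also passed with library quality weights (-0.71, limma adjusted p = 0.0079). With the trend of GC content and length removed, that of Dbp was 0.21 ± 0.17. The 95% interval for Per2 ran from -0.57 to 0.24, for Per3 from -0.60 to 0.20, for Cry1 from -0.33 to 0.19 and for Ciart from -0.44 to 0.41 on the log2 scale.

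SAFit2 given early was compared with vehicle given early, in mice whose last gel lay furthest before collection. None of the 10 clock genes passed the threshold, nor did any of the 16765 genes tested (0.0%), of which 416 (2.48%) had an unadjusted limma p under 0.05. No member was among those 416, and in 0 of the 10 did the early groups not overlap, beside 0.352% of all genes. The log2 differences ran from -0.19 for Cry1 to 0.25 for Per1, and all 10 had a limma adjusted p of 1.00. Their median was 0.08, beside 0.01 over all genes, and 7 of the 10 were above 0.

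Cry1, a cryptochrome that inhibits the activator pair, had the smallest spread of the 10 genes. Its levels were 4.11, 4.12, 4.18, 4.47 and 4.21 log2 CPM in Early SAFit2, and 4.29 to 4.61 (median 4.39) in Early Vehicle. All but 1 of the SAFit2 mice lay below every vehicle mouse, and the exact permutation test gave p = 0.0433 for Cry1 over 462 splits (two-sided, unadjusted), the only one of the 10 below 0.05, against a limma difference of -0.19 ± 0.12 (SE). After the GC and length trend was removed, the permutation p of Cry1 was 0.121.

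Per1 in Early SAFit2 was 4.08, 5.08, 4.82, 4.90 and 4.82 log2 CPM, and 4.11 to 5.29 (median 4.38) in Early Vehicle. The early difference of Per1 was 0.25 ± 0.27 (SE; 95% interval -0.31 to 0.80), and the ranges of the groups overlapped almost entirely. Nr1d1 had 6.01, 6.73, 6.62, 6.39 and 6.52 log2 CPM in Early SAFit2, and 5.86 to 6.63 (median 6.41) in Early Vehicle. Its early difference was 0.09 ± 0.19 (SE; 95% interval -0.29 to 0.47), and the groups overlapped along nearly their whole range.

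**Figure D3:**
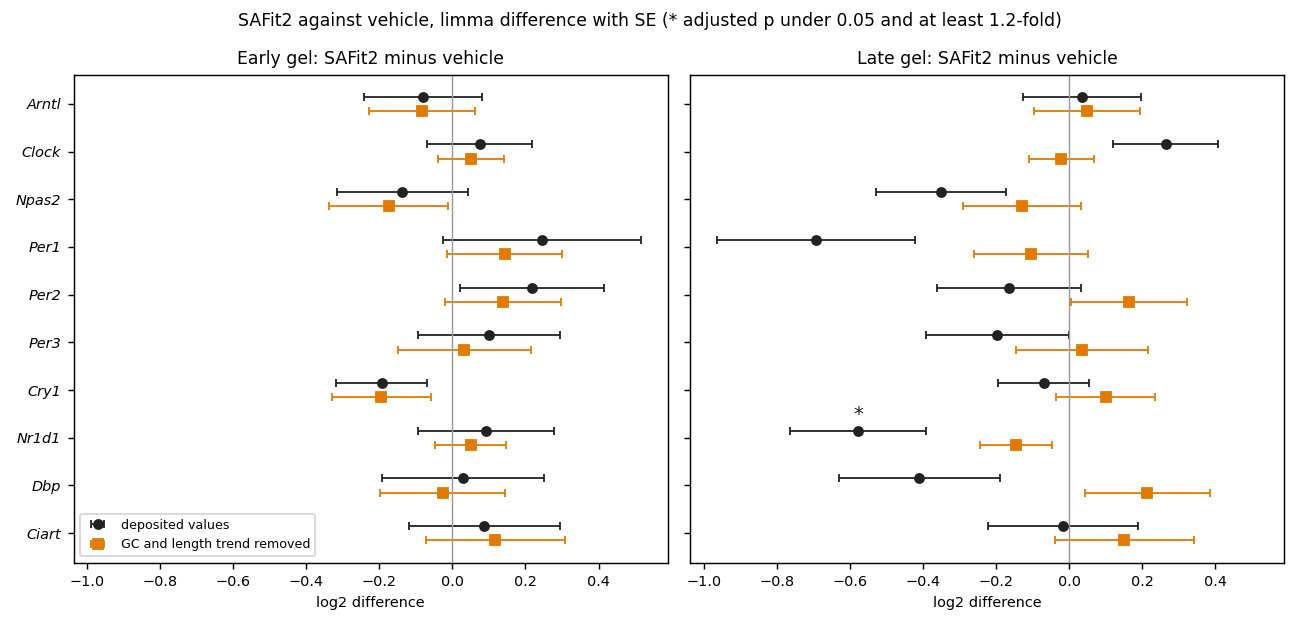
Log2 difference of SAFit2 minus vehicle for the 10 clock genes in early (left) and late (right) mice, with bars for the SE and a star for a call, from the deposited values and with the GC and length trend removed. Nr1d1 in late mice (-0.58) is the 1 difference past the threshold, and after removal of the trend it is -0.15.

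The early and late effects of SAFit2 were compared directly by their interaction, the early difference minus the late difference. It passed the threshold for none of the 10 genes and for none of the 16765 tested (0.0%), of which 4167 (24.9%) had an unadjusted limma p under 0.05. The interactions of Per1 and Nr1d1 were among those 4167, at 0.94 ± 0.38 and 0.67 ± 0.26 on the log2 scale (SE), each with a limma adjusted p of 0.14. Without Late Vehicle replicate 6 both passed, Per1 at 1.18 and Nr1d1 at 0.83 with limma adjusted p of 0.025 each. After the GC and length trend was removed they were 0.25 for Per1 and 0.20 for Nr1d1, and over the 10 genes the interaction correlated with GC content at r = 0.82 (rho = 0.95). Averaged over both timings, the SAFit2 effect passed for none of the 10 genes, and for none of all genes tested (0.0%, with 2215 or 13.2% at an unadjusted limma p under 0.05), and its log2 values ran from -0.24 to 0.17. With library quality weights Nr1d1 passed in this mean (-0.38, limma adjusted p = 0.0066), beside 2844 of all genes. These weights also called the interactions of Clock, Per1, Nr1d1 and Dbp (limma adjusted p up to 0.033), beside 5082 of all genes.

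The clearest difference of the clock genes lay between early and late mice. Per3 was lower in late than in early mice under both vehicle and SAFit2, and Dbp was higher in late than in early vehicle mice. Under vehicle, 2 of the 10 genes passed, 1 higher and 1 lower, beside 9.11% of all genes tested (3.29% higher, 5.82% lower). Under SAFit2 it was again 2 of 10, both lower, Per3 and Per2, beside 20.5% of all genes (11.3% lower). With the GC and length trend removed, 3 of the 10 passed under vehicle (Per3, Dbp and Nr1d1) and 3 under SAFit2 (Per3, Dbp and Cry1), beside 18.5% and 21.3% of all genes, so that none of these shares stands far from its background. With library quality weights all of the 10 but Npas2, Per2 and Cry1 passed under vehicle, beside 5067 of the 16765 genes tested. Under SAFit2 these weights called Per1, Per2 and Per3, beside 5162. How the 10 stood beside all genes thus depended on the fit. The 2 comparisons share no mice with each other, but each shares its mice with the SAFit2 contrasts above. Day after injury at collection, strain and tissue were the same for all mice, and batch and timing cannot be told apart.

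Per3, the third of the Period genes, ranged from 4.07 to 4.95 log2 CPM (median 4.25) in Early Vehicle and from 2.66 to 3.84 (median 3.42) in Late Vehicle. Early SAFit2 mice had 4.31, 4.66, 4.28, 4.54 and 4.57, and Late SAFit2 mice 3.00, 3.20, 3.19, 3.67 and 2.78. No late mouse reached the lowest early mouse, whichever gel it had received. Of all genes tested, 1.39% had 11 late mice all below the 11 early mice, as Per3 did, and 3.6% under vehicle and 7.42% under SAFit2 had late groups wholly below the early ones. In vehicle mice the log2 difference of late minus early was -1.01 ± 0.19 (SE), a fold of 0.497, with a limma adjusted p of 0.00093. In SAFit2 mice it was -1.30 ± 0.20 (SE), a fold of 0.405, with a limma adjusted p of 0.00015 for Per3. Exact permutation gave p = 0.00216 for vehicle (924 splits) and 0.00794 for SAFit2 (252 splits), the smallest two-sided values these numbers of mice allow.

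With the GC and length trend removed the timing difference of Per3 was -0.99 in both vehicle (limma adjusted p = 0.00023) and SAFit2 mice (adjusted p = 0.0006). Leaving out any 1 of the 22 libraries kept both calls of Per3, with limma adjusted p up to 0.0039 under vehicle and 0.0009 under SAFit2. The SD of Per3 within groups was 0.33 log2 CPM.

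Dbp, the output factor that acts on D-boxes, moved the opposite way to Per3. It ranged from 4.30 to 5.17 log2 CPM (median 4.47) in Early Vehicle and from 4.58 to 5.95 (median 5.56) in Late Vehicle. All but 1 of the late vehicle mice lay above the highest early vehicle mouse. The log2 difference was 0.85 ± 0.21 (SE), a fold of 1.80, with a limma adjusted p of 0.011 and an exact permutation p of 0.0108. The call held without any 1 of the 22 libraries (limma adjusted p up to 0.036), and the value with the GC and length trend removed was 0.72 (adjusted p = 0.0025). Dbp shares 539 exon bases with Sphk2 on the opposite strand.

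Dbp in SAFit2 mice was 4.42, 5.17, 4.97, 4.30 and 4.45 log2 CPM early and 5.32, 5.0, 4.64, 5.03 and 5.36 late. Of the late mice, 2 lay above every early mouse and the rest within the early range. The difference was 0.41 ± 0.23 (SE; 95% interval -0.07 to 0.88; limma adjusted p = 0.21) on the deposited values. With the GC and length trend removed it was 0.96 ± 0.18 (SE; limma adjusted p = 0.00047), and with the library GC slope as a covariate 0.82 (adjusted p = 0.018), so that in SAFit2 mice Dbp was called only where GC content was accounted for among the alternatives run.

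Per2, the Period gene with the lowest level per length, was lower in late than in early SAFit2 mice. It had 3.11, 3.75, 3.80, 3.84 and 3.78 log2 CPM in Early SAFit2 and 3.27, 2.99, 3.58, 2.61 and 2.65 in Late SAFit2. All but 1 of the early mice lay above every late mouse. The log2 difference was -0.63 ± 0.21 (SE), a fold of 0.646, with a limma adjusted p of 0.032 and an exact permutation p of 0.0238. It did not pass with the GC and length trend removed (-0.23, limma adjusted p = 0.34), nor without each of 7 libraries in turn: Early SAFit2 replicates 2, 3, 4 and 5 and Late SAFit2 replicates 2, 4 and 5 (adjusted p up to 0.090), nor with limma voom (adjusted p = 0.058) or median centring (adjusted p = 0.065) for Per2. In vehicle mice Per2 ranged from 2.90 to 3.91 (median 3.42) early and from 2.96 to 3.39 (median 3.18) late, a difference of -0.25 ± 0.19 (SE; limma adjusted p = 0.45).

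The timing differences of Nr1d1 and Cry1 also depended on the processing. Nr1d1 was 0.46 ± 0.18 (SE; limma adjusted p = 0.10) higher on the log2 scale in late than in early vehicle mice. It passed with the GC and length trend removed (0.42 ± 0.093, limma adjusted p = 0.0021), with each library centred on its median (0.53, adjusted p = 0.035) and without Late Vehicle replicate 6 (0.63, adjusted p = 0.0077). Library quality weights also gave a call of Nr1d1 (0.63, limma adjusted p = 8.3e-05). In SAFit2 mice the timing difference of Nr1d1 was -0.21 ± 0.19 (SE; limma adjusted p = 0.46), and 0.23 (adjusted p = 0.11) once the trend was removed.

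Cry1 in Late SAFit2 was 4.49, 4.53, 4.13, 4.76 and 4.51 log2 CPM, and all but 1 of these mice lay above every Early SAFit2 mouse. The difference was 0.27 ± 0.13 (SE; limma adjusted p = 0.14), and passed for Cry1 with the GC and length trend removed (0.46 ± 0.14, adjusted p = 0.021) and with median centring (0.39, adjusted p = 0.039). Late Vehicle mice ranged from 4.26 to 4.78 (median 4.59), 0.14 ± 0.12 (SE) above the early ones. Per1 in SAFit2 mice was 0.61 ± 0.28 (SE) lower late than early, with a limma adjusted p of 0.12, and a log2 difference of 0.01 with the trend removed. It passed with library quality weights (-0.58, limma adjusted p = 0.045) and when only the SAFit2 mice were fitted (-0.61, adjusted p = 0.037). With these weights the vehicle timing difference of Per1 passed too (0.62, adjusted p = 0.0068).

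The remaining genes showed no timing difference past the threshold in the fit used throughout. With library quality weights, 3 of them passed under vehicle. These were Arntl (-0.38, limma adjusted p = 0.0065), Clock (-0.50, adjusted p = 0.00036) and Ciart (0.50, adjusted p = 0.022). Under these weights 5067 of the 16765 genes tested passed, against 1527 in the fit used throughout. Arntl, which encodes the activator BMAL1, ranged from 3.32 to 4.37 log2 CPM (median 4.17) in Early Vehicle and from 3.65 to 3.90 (median 3.80) in Late Vehicle. Its levels were 4.18, 3.98, 4.00, 3.85 and 3.86 in Early SAFit2 and 4.16, 3.82, 3.85, 3.95 and 3.35 in Late SAFit2. All but 1 of the early vehicle mice lay above every late vehicle mouse, with replicate 4 far below, and the difference was -0.26 ± 0.15 (SE; limma adjusted p = 0.31). Without Early Vehicle replicate 4, Arntl passed at -0.41 (limma adjusted p = 0.049).

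Ciart ranged from 2.52 to 3.16 log2 CPM (median 2.83) in Early Vehicle and from 2.76 to 3.75 (median 3.05) in Late Vehicle. The repressor had 3.17, 2.97, 3.16, 3.10 and 2.31 in Early SAFit2 and 3.43, 2.92, 3.37, 2.61 and 3.15 in Late SAFit2, so all 4 groups of Ciart overlapped. Clock was 5.87, 5.50, 6.06, 5.72 and 6.20 in Early SAFit2 and 5.57 to 6.09 (median 5.80) in Early Vehicle. Its late minus early difference was -0.24 ± 0.14 (SE) under vehicle and -0.05 ± 0.15 under SAFit2. Npas2 was 3.08, 3.33, 3.31, 3.50 and 3.44 in Early SAFit2 and 3.02 to 3.80 (median 3.55) in Early Vehicle. Its timing differences of -0.05 ± 0.17 (SE) under vehicle and -0.27 ± 0.19 under SAFit2 were smaller than or close to the spread of 0.27 within groups.

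**Figure D4:**
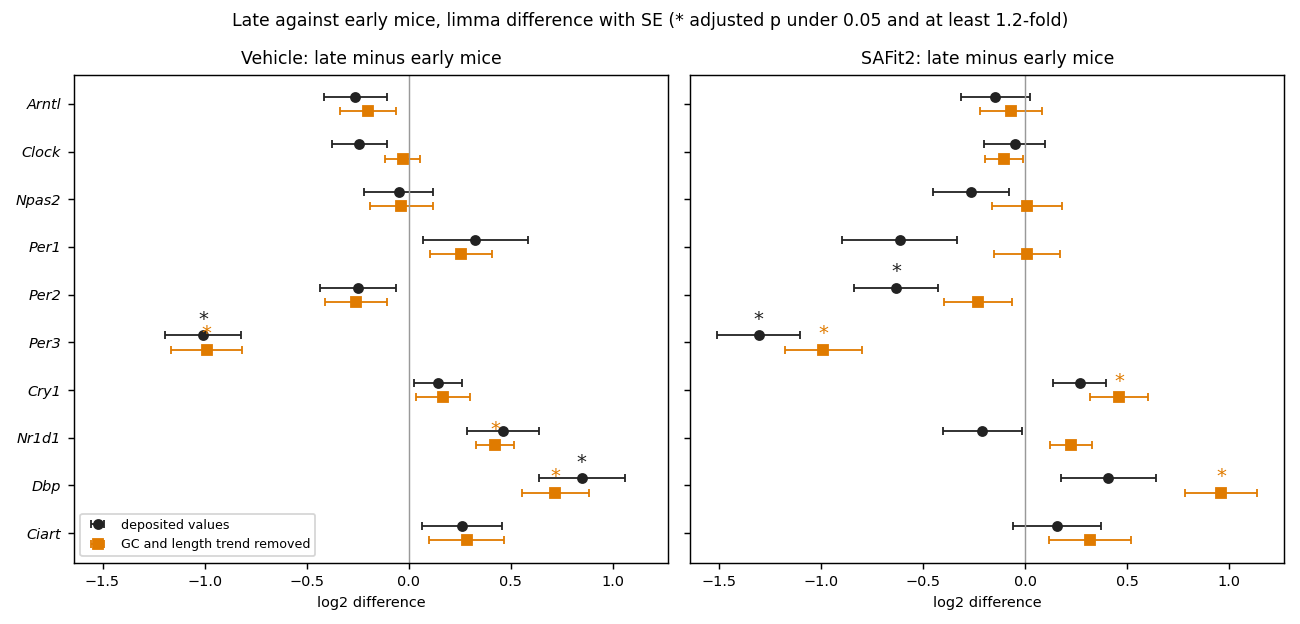
Log2 difference of late minus early mice for the 10 clock genes, under vehicle (left) and SAFit2 (right), with bars for the SE and a star for a call, from the deposited values and with the GC and length trend removed. Per3 is lowest under both gels (-1.01 and -1.30), and Dbp under vehicle (0.85) is the highest of the deposited values.

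Other transcripts moved with the timing too. Neat1, a long RNA kept in the nucleus, averaged 7.55 log2 CPM in Early Vehicle and 4.10 in Late Vehicle, and Meg3, another such RNA, 10.06 and 6.55 (both chosen after their values were seen). Summed microglial markers (5 of 5 genes in the table) ranged from 131 to 178 CPM in early and 162 to 201 CPM in late mice, and astrocyte markers (5 of 5) from 1542 to 2453 and 2158 to 2824 CPM. The part of either in the differences of Per3 and Dbp was not tested.

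The co-variation of the clock genes between mice was examined on deviations from each group's mean, so that no difference between groups or batches entered. Of the 45 pairs of genes, 1 passed at a permutation p adjusted below 0.05 over the pairs, Per1 with Nr1d1. All pairs share the same 22 libraries. Their Pearson correlations ran from -0.58 (Clock with Ciart, permutation p adjusted 0.13) to 0.83, with 26 positive and 19 negative, and 10 had an unadjusted permutation p under 0.05.

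Per1 and Nr1d1, both targets of the activator pair, correlated at r = 0.83 (permutation p = 0.00014, adjusted p = 0.0063) and rho = 0.81 (permutation p = 0.00028, adjusted p = 0.013). Within early mice the correlation was 0.64 (permutation p = 0.059) and within late mice 0.93 (permutation p = 0.0012, adjusted p = 0.034). Without the 2 mice farthest from the median it was 0.66, with an adjusted permutation p of 0.0996, so its passing of the threshold rested on those mice. With the GC and length trend removed from each library, Per1 and Nr1d1 correlated at 0.34 (adjusted permutation p = 0.78), at -0.21 in early and 0.71 in late mice. After that step the 45 correlations ran from -0.45 (Cry1 with Nr1d1) to 0.43 (Arntl with Npas2), and none had an unadjusted permutation p under 0.05.

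**Figure D5:**
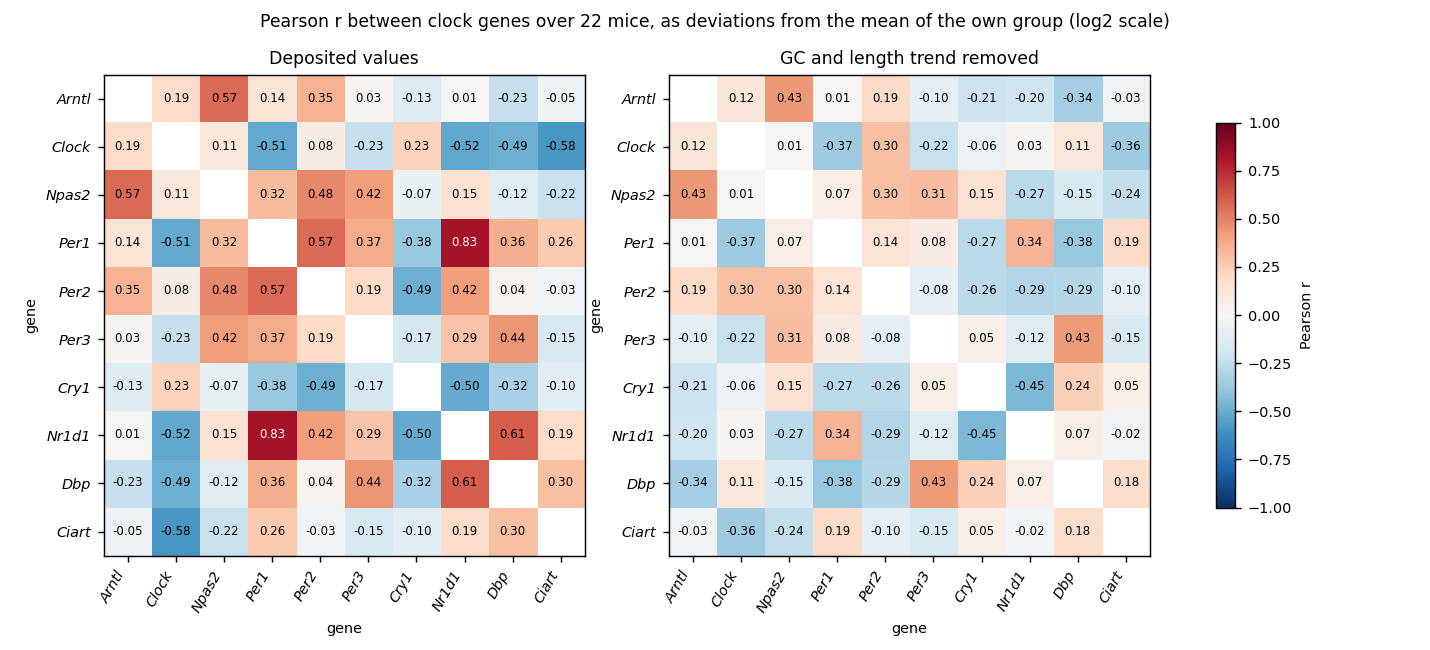
Pearson correlations of the 45 pairs of clock genes over 22 mice, as deviations from the group mean and coloured from -1 to 1, from the deposited values and with the GC and length trend removed. Per1 with Nr1d1 goes from 0.83 to 0.34, and after removal no pair lies outside -0.45 to 0.43.

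Arntl was not found to run inversely to the genes of the opposite phase beyond the spread between mice. Arntl and Dbp correlated at -0.23 (permutation p adjusted 0.58), at -0.42 within early and -0.02 within late mice. The correlation of Arntl with Nr1d1, its repressor, was 0.01 (adjusted permutation p = 0.96). Nr1d1 and Dbp, both activated through the pair, correlated at 0.61 (adjusted permutation p = 0.13), and at 0.07 with the trend removed. Without the 2 mice farthest from the median Nr1d1 and Dbp correlated at 0.70 (adjusted permutation p = 0.048). With the trend removed too this was 0.47 (adjusted permutation p = 0.53). Per1 and Per2 correlated at 0.57 (adjusted permutation p = 0.079), at 0.86 within early and 0.35 within late mice. They correlated at 0.74 without the 2 farthest mice (adjusted permutation p = 0.048), and at 0.14 over all mice with the trend removed. Arntl and Npas2, which share a phase, correlated at 0.57 (adjusted permutation p = 0.19), and at -0.19 without the 2 mice farthest from the median. Clock and Nr1d1 correlated at -0.52 (adjusted permutation p = 0.19), at -0.93 within late mice (adjusted permutation p = 0.034) and at 0.10 within early mice. With the trend removed the correlation of Clock with Nr1d1 was 0.03, at -0.50 within late (adjusted permutation p = 0.66) and 0.66 within early mice. Clock and Per1 correlated at -0.88 within late mice (adjusted permutation p = 0.065) and at -0.51 with the trend removed. Per2 and Cry1 correlated at -0.49 (adjusted permutation p = 0.19), and at -0.80 within late mice (adjusted p = 0.040). Without the 2 farthest mice that pair stood at -0.67 (adjusted permutation p = 0.048), and with the trend removed at -0.26. Npas2 and Per3 correlated at 0.42 (adjusted permutation p = 0.24), at 0.71 within late (adjusted p = 0.040) and -0.11 within early mice.

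The clock genes were also set against 3 properties of the libraries, the GC slope, the reads on genes and the library number of the labels, which made 30 relations. With the GC slope, Nr1d1 correlated at r = 0.95 (rho = 0.94, the permutation p of 1e-05 being the smallest they can give, adjusted p = 0.0003), at 0.89 within early and 0.98 within late mice, and at 0.90 without the 2 farthest mice. Per1 correlated with it at r = 0.86 (rho = 0.86, adjusted permutation p = 0.00045), at 0.79 within early and 0.90 within late mice, and at 0.74 without the 2 farthest mice. The remaining genes had values from -0.59 for Clock to 0.63 for Dbp, none past the adjusted threshold. Within late mice alone Clock passed too (r = -0.90, adjusted permutation p = 0.036). On the deposited values no relation of a clock gene with reads on genes or library number passed. After removal of the GC and length trend 3 relations passed. Cry1 (r = -0.75, adjusted permutation p = 0.0069) and Nr1d1 (r = 0.72, adjusted permutation p = 0.026) still ran with the slope, and Dbp ran with the reads on genes (r = -0.64, adjusted permutation p = 0.042), so the trend-removed values of Cry1, Nr1d1 and Dbp given above were not free of library properties. The slope is computed from all genes, of which the clock genes are a small share.

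The spread of the genes within groups also differed. On the deposited values the SD within groups was largest for Per1 (0.51) and Dbp (0.41) and smallest for Cry1 (0.17). With the GC and length trend removed it fell to 0.28 for Per1, 0.16 for Nr1d1 (from 0.34) and 0.14 for Clock (from 0.25), whereas for Per3 it was 0.33 before and 0.32 after, and for Cry1 it was 0.23 after. Nr1d1 and Clock were then the genes with the least spread between mice of a group.

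As a description with no test, the genes whose deviations over the 22 libraries were most like those of Dbp among 16764 others were Rps4l (r = 0.84), Ptms (0.84), Camk2n2 (0.84), Znhit2 (0.84) and Rps2 (0.83). The most opposed were Abcd3 (-0.84), Braf (-0.82), Pak2 (-0.82), Osgin2 (-0.81) and Dennd5b (-0.81). For Arntl the most alike were Gab3 (r = 0.90), Tmem37 (0.88), Gli3 (0.85), 2700054A10Rik (0.84) and a gene listed without a symbol (0.84), and among the most opposed were Map10 (-0.85), Sertad4 (-0.77), Wdr3 (-0.77) and Nit2 (-0.76). No clock gene was among these. After the GC and length trend was removed none of the 10 named for Dbp was among its 5 most alike or 5 most opposed, which were led by Prcd (r = 0.83) and Ggcx (-0.86), whereas Gab3 and Tmem37 still led for Arntl (0.86 and 0.84). On the deposited values Npas2 was the clock gene most like Arntl, at rank 517 from the top.

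A wider list of 29 clock regulators and outputs outside the 10, all of them tested, gave the surroundings of these changes. In the late SAFit2 contrast 3 were higher and 2 lower, beside 12.1% of all genes. Rorb (0.63, limma adjusted p = 0.033) and Hlf (0.36, adjusted p = 0.034) encode a receptor that competes for RREs and a factor of the DBP family, and Gsk3b (0.35, adjusted p = 0.044) a kinase of clock proteins. The lower ones were Cry2 (-0.38, limma adjusted p = 0.044), the second cryptochrome, and Csnk1e (-0.34, adjusted p = 0.042), a kinase of the PER proteins. Each of these 5 calls was lost without single libraries in turn (7 of the 22 for Rorb and for Hlf, 10 for Csnk1e, 11 for Gsk3b and 13 for Cry2), and all 5 when only the late mice were fitted. None of the 29 passed with the GC and length trend removed, when Cry2 was 0.01 and Csnk1e 0.08. Nr1d2, the close homolog of Nr1d1, had a late log2 difference of 0.31 (limma adjusted p = 0.11), opposite in sign to Nr1d1. Tef, a homolog of Dbp, had -0.24 (limma adjusted p = 0.082). In the early contrast, in the interaction and in the mean of both timings none of the 29 passed.

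Between early and late vehicle mice, 2 of the 29 were higher late, the repressors Bhlhe40 (0.29, limma adjusted p = 0.037) and Bhlhe41 (0.66, adjusted p = 0.027). Cipc, whose protein inhibits CLOCK, was lower (-0.32, limma adjusted p = 0.031). These 3 of 29 stand beside 9.11% of all genes. The calls were lost without each of 8 libraries for Bhlhe40, 4 for Bhlhe41 and 5 for Cipc, and all 3 when only the vehicle mice were fitted. In SAFit2 mice 7 were higher and 3 lower in late than in early mice, beside 9.2% higher and 11.3% lower of all genes. The 5 of lowest p that rose were Klf9 (0.53, limma adjusted p = 0.0039), Hlf (0.42, adjusted p = 0.007), Nono (0.35, adjusted p = 0.0085), Rorb (0.62, adjusted p = 0.015) and Coq10b (0.60, adjusted p = 0.018). Those that fell were Csnk1e (-0.39, limma adjusted p = 0.015), Cipc (-0.32, adjusted p = 0.028) and Tef (-0.32, adjusted p = 0.028). Of those named, the calls of Klf9, Hlf and Nono held without any 1 library, and those of Rorb, Coq10b and Csnk1e were each lost without 1, Cipc without 4 and Tef without 5. With the trend removed the counts were 5 higher and 1 lower under vehicle, beside 18.5% of all genes, and 7 higher and 0 lower under SAFit2, beside 21.3%. Of the 8 glucocorticoid-induced genes, Mt2 was higher late under vehicle (0.48, limma adjusted p = 0.016), and Mt2 (0.66, adjusted p = 0.0021) and Klf9 under SAFit2, where Fkbp5, the gene of the drug's target, did not pass.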

How the data were processed

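RNA of 22 mice in 4 groups was analysed from 1 deposited table of log2 CPM per gene, which the authors made from their reads. The submitters' processing notes name Trimmomatic, HISAT2 and the mm10 genome, and the study's methods name featureCounts, scaling by trimmed mean of M-values and a minimum-count filter. The libraries were made with a directional kit, and the strand setting of the counting is not given in the sources used here. Every value worked back to whole reads within 0.02 reads, and every column was tied to a sample by the library name in the sample's description (0 columns were left out). Of the genes, 384 carried no symbol, and no 2 libraries were identical (correlations of 0.925 to 0.987).

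Groups came from the treatment and batch labels. The values were fitted as deposited with limma 3.58.1 (R 4.3.3) with 4 group means and a variance trend, on the 16765 genes for which no fewer than 5 libraries reached a log2 CPM of -1, with Benjamini-Hochberg adjustment over all of them. A gene was called at an adjusted p under 0.05 with a 1.2-fold change. Exact permutation tests over mice were two-sided, and correlations used 100000 permutations of mice within groups (Python 3.11.15, numpy 2.4.6, pandas 2.3.3, scipy 1.17.1; figures by matplotlib 3.10.9). GC content and length came from the longest GENCODE transcript (GRCm38.p6) for 16687 genes (96.4%), and each library's loess trend (span 0.5) on both was removed as an alternative. The fit was run on simulated reads with known changes in Late SAFit2, with and without a GC trend. Those reads held no batch difference, so the run says nothing on the timing contrasts.

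The 10 genes, the wider clock lists and the cell markers were chosen with earlier results of these data known. All 10 are named, with the genes called in the wider lists (at most 5 of lowest p per contrast and direction), Cry2, Nr1d2 and Tef, and the 5 most and least alike to Dbp and Arntl, of which 1 is not reported here. Replicate numbers did not pair the mice: same-numbered vehicle and SAFit2 mice correlated at -0.236 to 0.317 in their deviations, over 0.1 in 2 of 10 pairs.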

Additional observations from a re-analysis of the deposited data

Results flagged for a closer look

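In each of the 40 sets of a clock gene and a group, the distance of the lowest and the highest mouse from its neighbour was divided by the range of the group, and 6 sets exceeded Dixon's 95% limit. Chance alone does so in about 1 of 20 groups.

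In Early SAFit2, replicate 1 was far below the others for both Per1 (ratio 0.745) and Per2 (0.875), at 4.08 and 3.11 log2 CPM. Ciart was low in replicate 5 of that group (0.765, at 2.31 log2 CPM), and Cry1 was high in replicate 4 (0.723, at 4.47 log2 CPM). Arntl was low in replicate 4 of Early Vehicle (0.732, at 3.32 log2 CPM). Npas2 was low in replicate 2 of Late Vehicle (0.676, at 3.11 log2 CPM).

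For 2 of the 10 genes the early and late effects of SAFit2 differed at an unadjusted limma p under 0.05 and not after adjustment. The same held for 24.9% of all genes tested, so this count does not exceed the background. The early minus late difference was 0.94 for Per1 and 0.67 for Nr1d1 on the log2 scale, each with a limma adjusted p of 0.14.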

How the results depend on the processing

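Neither another filter on low values nor another pseudocount changed a call of the 10 clock genes. There were 820 alternative values for them (leave-one-out not counted). Of these, 780 kept their side of the threshold, 10 lost a call, 28 gained one and 2 turned direction with the call involved. Among those 780, 65 values with no call changed sign. For 58 of these 65 the GC and length trend, the library GC slope or the replicate block was in the fit. The cause of these changes was not tested.

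The number of genes called for late SAFit2 against vehicle (2021) was 62 with no variance trend, 6381 with library quality weights, 876 with limma voom on the reads, and 0 with the GC and length trend removed, with the mice of only these groups, and with the library GC slope as a covariate (added after seeing the data). Library quality weights gave 13 for early SAFit2 and 2844 for both timings together (0 each), 5082 for early minus late (0, and 2 with no variance trend), 5067 for timing under vehicle (1527) and 5162 under SAFit2 (3437). For timing under vehicle, 3002 were called with the GC and length trend removed and 2292 with the slope as a covariate, which gave 1215 under SAFit2.

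The replicate block, for numbers that do not pair the mice, gave 4219 calls for late SAFit2 and 1785 for early minus late, and 10 for late SAFit2 with the GC and length trend removed too. Shared by early and late, with that trend removed, it gave 2900 for timing under vehicle. With the block, Nr1d1 (-0.74, limma adjusted p = 0.0084), Per1 (-0.94, adjusted p = 0.010) and Clock (0.38, adjusted p = 0.040) were called in the late contrast, and in early minus late Per1 (1.11, adjusted p = 0.038) and Nr1d1 (0.88, adjusted p = 0.030). Only the vehicle groups held a replicate 6, so with the block those mice did not enter the SAFit2 differences. The late differences of Per1 and Clock equalled those found without Late Vehicle replicate 6.

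With the library GC slope as a covariate Nr1d1 was 0.0895 in the late contrast and 0.32 in the timing under SAFit2 (limma adjusted p = 0.028). With the GC and length trend removed, Cry2 was 0.0114 and Csnk1e 0.0821 in the late contrast (Csnk1e 0.142 with the replicate block), and in the timing under SAFit2, Csnk1e was 0.0532 and Tef 0.0058, the same with the shared block.

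Left out in turn, single libraries gave 1 to 4971 calls for late SAFit2, 0 to 0 for early SAFit2, 0 to 2 for both timings, 0 to 2513 for early minus late, 944 to 2482 for timing under vehicle, 2201 to 3957 under SAFit2, and 1 to 4 pairs of clock genes. For late SAFit2 the count was 1 without any one of Late SAFit2 replicates 2 and 5 and Late Vehicle replicates 1, 3, 4 and 5, 8 without Late SAFit2 replicate 4, 3537 without Late SAFit2 replicate 1, 3790 without Late Vehicle replicate 2, and 4971 without Late Vehicle replicate 6, the library behind 2513 and 2482 as well. The 944 was without Late Vehicle replicate 1 and the 2201 without Early SAFit2 replicate 3.

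Of the permutation tests, 1 gene in the late contrast and 1 in the early one passed unadjusted, and 0 in each with the GC and length trend removed. Of 45 pairs, 1 was called, and 0 with the trend removed (also by Spearman, in early mice, in late mice, with any 1 library left out and without the 2 farthest mice), 7 on raw values, 0 in early mice, 4 in late mice and 3 without the 2 farthest mice. With the trend removed, Per1 with Nr1d1 was -0.21 in early mice, and -0.0217 over the mice of all groups without Late Vehicle replicate 6. Of the 30 relations with library properties 2 passed, 1 in early mice alone, 3 in late mice alone, and 3 over all mice with the trend removed (0 in early and 0 in late mice).

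With 5 or 6 mice a group, the late 95% intervals were narrowest for Cry1 (-0.33 to 0.19) and widest for Per1 (-1.25 to -0.14) on the log2 scale, which limits the size of difference that could be detected.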
